A study of Danio rerio with 4 samples.

Results

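Simple repeats whose unit holds a CpG, a C directly followed by a G, were followed in total RNA of zebrafish larvae. Some carry the uhrf1 mutation hi272, and the others are labelled as their siblings. The repeat table lists 10135 simple repeat names among 11258 repeat names, each written as a unit in round brackets followed by n. Read as a circle, so that the last base is followed by the first, 1018 of these units hold a CpG. A CpG reads the same on the complementary strand, so both strands give the same names. Members were selected on their reads: the 319 names with 20 or more reads summed over the 4 libraries were kept. Just inside that limit were (TCCGTTC)n with 20 reads, (AGGCGG)n with 20 and (TCTTCG)n with 21. Just outside it were (CACGAC)n with 19 reads, (CACTCGC)n with 19 and (CAGACG)n with 19.

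The mutant group, labelled uhrf1(hi272), had 2 libraries and the group of phenotypically normal siblings had 2. Per the labels, all were pools of 10 to 20 whole larvae aged 5 days (120 h after fertilisation) from 2 clutches, sorted by appearance, so that a sibling may be of any genotype that looks normal. The RNA was depleted of ribosomal RNA and 75-base reads were taken from a single end. Which clutch a replicate came from is not given in the labels, so p-values measure only the spread between these libraries, which may be technical.

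Simple repeats are short units copied head to tail. In vertebrates the C of a CpG is the usual site of DNA methylation, and tandem copies of a CpG unit offer such a site in every copy. Uhrf1 binds DNA that carries the methyl mark on only the old strand after replication and brings in the methyltransferase Dnmt1, which marks the new strand. The allele hi272 comes from a screen with retroviral insertions, and zebrafish without Uhrf1 lose DNA methylation, and repeats are among the sequences this mark is known to keep silent. No methylation was measured here.

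The 10 names with most reads held 49.8% of all member reads, and their sequence is given because the sums below turn on them. Each line shows 3 copies of the unit in a row as the deposited name spells it, with every CpG in capitals. Several lines are rotations or complements of each other and spell the same tandem repeat. These are (CGA)n with (TCG)n, (CACG)n with (CGTG)n and (GTGC)n, and (GATGAC)n with (CATCGT)n.
Repeat (GCGGCC)n: gCGgcCGCGgcCGCGgcc
Repeat (CGA)n: CGaCGaCGa
Repeat (CACG)n: caCGcaCGcaCG
Repeat (GATGAC)n: gatgaCGatgaCGatgac
Repeat (CGTG)n: CGtgCGtgCGtg
Repeat (GTGC)n: gtgCGtgCGtgc
Repeat (TCG)n: tCGtCGtCG
Repeat (CATCGT)n: catCGtcatCGtcatCGt
Repeat (GCCCGC)n: gccCGCGccCGCGccCGc
Repeat (GACCGA)n: gacCGagacCGagacCGa

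The libraries stand apart in makeup, and this touches every comparison of the groups. Mutant libraries held 564941 to 571978 gene reads and 9671737 to 10559130 repeat reads, and sibling libraries 613370 to 812167 gene reads and 1611818 to 2108906 repeat reads. Hepatocyte markers took 0.278% to 0.494% of gene reads in mutants and 13.6% to 16.3% in siblings, over 14 matched genes. Skeletal muscle markers took 3.96% to 4.36% in mutants and 0.0102% to 0.0196% in siblings, over 9 genes, and skin markers took 0.855% to 0.875% in mutants and 0.0112% to 0.0235% in siblings, over 6 genes. Lens, photoreceptor and neuron markers had 183 to 736 reads per list in each mutant library and 0 to 2 in each sibling library, with 16 of these 19 genes at 0 in both siblings. Whole larvae hold all these tissues, so the sibling libraries go against their label. Sibling replicate 2 had 126220 reads of exocrine pancreas markers, against 234 in sibling replicate 1 and 23 and 24 in the mutants. The genotype and this makeup cannot be told apart, and in pooled larvae neither can fewer cells of a type and less RNA per cell. The targeted gene uhrf1 had 7 and 9 reads in the mutants, against 2 and 17 in the siblings, a log2 fold change of -1.62 ± 0.91 (edgeR without the count filter, adjusted p = 0.303), which does not check the labels.

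Over all members, the mutant libraries had 27190 and 29379 reads, and the sibling libraries 8442 and 12413. As CPM, the usual depth-scaled count, here relative to each library's gene reads after TMM adjustment, these are 26640 and 28360 in mutants and 21860 and 31490 in siblings. The groups overlapped, and the mean was 27500 ± 1216 CPM in mutants and 26680 ± 6809 CPM in siblings (SD, n = 2 each). The sum rests on a single name. (GCGGCC)n held 17.0% and 16.7% of the member reads in mutants, against 59.3% and 68.1% in siblings. Without it the members summed to 22120 and 23630 CPM in mutants and 8902 and 10060 CPM in siblings, a mean 2.41-fold higher in mutants with no overlap. On the log2 scale that difference was 1.27. It was 0.19 with total repeat reads, where the groups overlapped, and 0.60 with gene and repeat reads together. It was 2.98 with total gene reads and 4.0 with ribosomal protein reads. TMM from the repeat counts, which gave the lowest member median of the scalings tried, was not applied to this sum. All other simple repeats together were 1.62-fold higher, at 950900 ± 50770 CPM in mutants and 586200 ± 45890 CPM in siblings. All repeat names together were 2.06-fold higher, at 9834000 ± 504200 CPM in mutants and 4775000 ± 970200 CPM in siblings. Neither of these sums leaves out its largest name. The like value for members is therefore the 1.03-fold of all 319, and the 2.41-fold cannot be set against them. The sum without (GCGGCC)n was not planned beforehand.

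**Figure D1:**
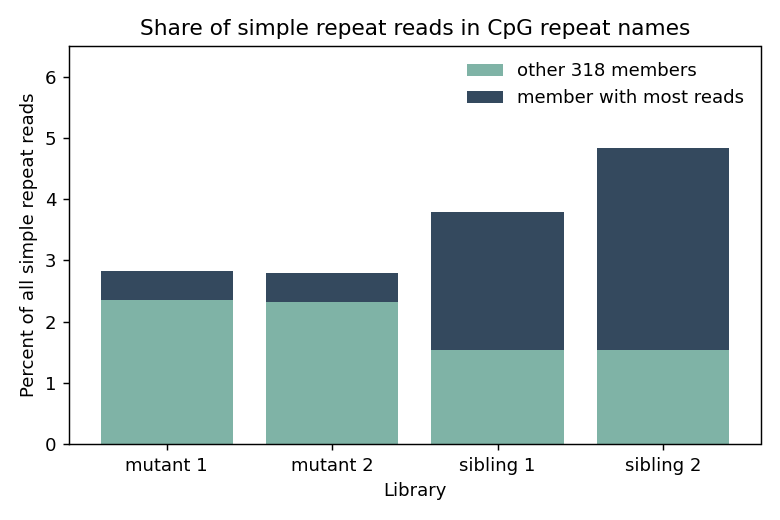
Percent of all simple repeat reads that fell on CpG members in each library, split into the member with most reads, (GCGGCC)n, and the other 318. The whole bars are taller in both siblings, and the part for the other members is taller in both mutants.

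The share of simple repeat reads on members does not depend on how gene and repeat reads are scaled to each other. It was 2.83% (Wilson 95% interval 2.79% to 2.86%) and 2.79% (2.76% to 2.82%) in mutants, against 3.80% (3.72% to 3.88%) and 4.84% (4.76% to 4.92%) in siblings. These intervals cover counting error only. With (GCGGCC)n left out of both sums, the order turned round: the share was 2.36% and 2.34% in mutants, against 1.58% and 1.60% in siblings. Neither order could pass a test, since the exact permutation test over 2 against 2 libraries goes no lower than p = 0.33, and both gave that value. Of all repeat reads, members took 0.281% and 0.278% in mutants and 0.400% and 0.770% in siblings (exact permutation p = 0.33). Without (GCGGCC)n these shares were 0.234% and 0.232% in mutants and 0.163% and 0.247% in siblings, and the groups overlapped (exact permutation p = 1.0).

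Each name was then compared between the groups. Of the 319 members, 259 passed edgeR's count filter, and the 60 that did not had 20 to 49 reads. In the fit over all 3366 tested repeat names, 172 members were higher in mutants and 13 lower at an adjusted p under 0.05 (edgeR quasi-likelihood test, Benjamini-Hochberg), and 74 did not pass. These are 66.4% and 5.02% of the tested members, beside a background of 74.9% higher and 4.34% lower over all tested names. The members' median log2 fold change was 1.99 (1.97 with names at 0 in both siblings set to their bound), against 1.92 over all tested names. In 255 of the 319 members (79.9%) both mutants lay above both siblings in CPM, and in 20 (6.27%) both lay below. Over all 4065 repeat names with 20 or more reads the shares were 83.8% and 5.41%. Without mutant replicate 1, 56 of 229 tested members were called in either direction (24.5%), beside 45.2% of all tested names, and without mutant replicate 2, 55 of 213 (25.8%), beside 45.4%. These fits take the spread from the 2 siblings and assume that the lone mutant library varies like them, so that a call lost in them does not show a smaller change. With no count filter 117 of the 319 members were higher (36.7%) and 6 lower (1.88%), beside 24.1% and 1.22% of 7930 names, of which 4065 had the 20 reads that every member had to have.

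The direction of a call depends on the scaling, because it moves the median of all names. With TMM factors from the repeat counts that median was 0.14, and 24 members were higher and 32 lower, which is 9.49% and 12.6% of them beside 11.9% and 15.6% of all names. With total repeat reads it was 0.82, and 28.9% of members were higher and 8.98% lower beside 39.0% and 9.69%. With total gene reads it was 3.66, and 94.4% of members were higher and 0.702% lower beside 94.4% and 0.809%. With the reads of ribosomal protein genes it was 4.73, and 97.4% were higher and 0.327% lower beside 97.8% and 0.417%. The members' median stood 0.04 to 0.22 above the median of all names in these 5 scalings. Changes of single names are therefore also given relative to the median of all names. A change of scaling moves most names by nearly the same amount. A distance from the median that holds over the scalings is therefore no test of a change.

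**Figure D2:**
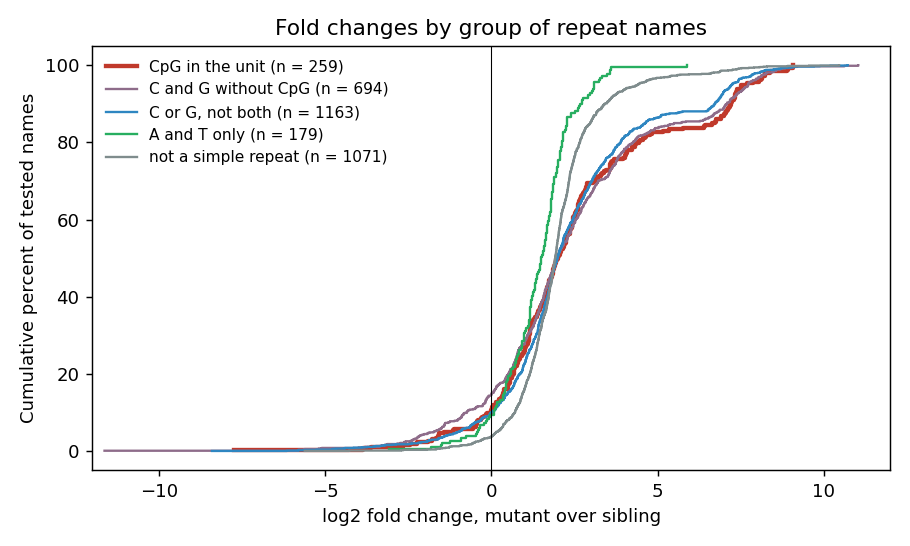
Cumulative percent of tested repeat names (vertical axis) against the log2 fold change of mutant over sibling, for CpG members and 4 other groups. CpG members run close to other simple repeats with C or G, while names of A and T only end lower and names that are not simple repeats are less spread. Values near 7 to 9 include names at 0 in both siblings, whose fitted size depends on the prior count, and (GCCCGC)n, with 1 read in each sibling.

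The same counts were made for the other simple repeats. Units with both C and G but no CpG had 462 of 694 tested names higher (66.6%) and 55 lower (7.93%), with a median log2 fold change of 1.98. Units with C or G but not both had 850 of 1163 higher (73.1%) and 56 lower (4.82%), with a median of 1.98. Units of A and T only had 121 of 179 higher (67.6%) and 5 lower (2.79%), with a median of 1.49. Names that are not simple repeats had 916 of 1071 higher (85.5%) and 17 lower (1.59%), and their median was 1.92. The middle 50% of members spanned 0.95 to 3.62, against 1.32 to 2.47 for names that are not simple repeats. The difference between these groups was not tested.

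**Figure D3:**
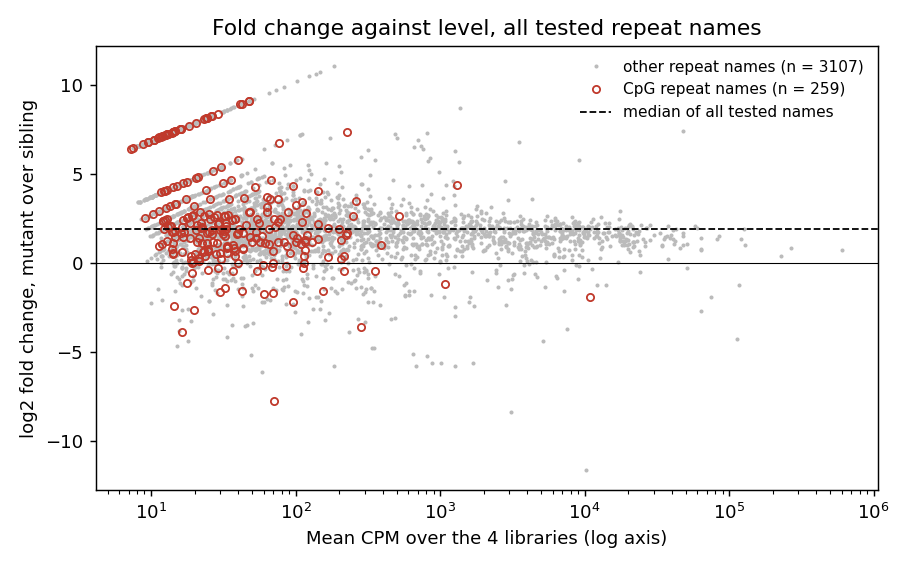
Log2 fold change of mutant over sibling against the mean CPM of the 4 libraries, for 259 CpG members and the other tested repeat names. Members mostly lie at low levels, and (GCGGCC)n is the circle at the far right, below 0. The rising lines at the left are names with 0, 1 or few sibling reads.

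Among the 13 names called lower in mutants, (GCGGCC)n held 84.5% of 27192 reads. It had 4618 and 4901 reads in the mutants, against 5004 and 8449 in the siblings. Scaled, these are 4525 and 4731 CPM in mutants, against 12960 and 21430 CPM in siblings, and both mutants lie below both siblings. It fell by 1.89 ± 0.33 on the log2 scale (edgeR, adjusted p = 0.000973), and stood at -3.81 relative to the median of all names. That distance lay between -3.85 and -3.80 in the 6 scalings tried. The log2 fold change itself ran between -3.69 and 0.88 and was positive with ribosomal protein scaling. (GCGGCC)n was not called with total gene reads (-0.15, edgeR adjusted p = 0.768) or ribosomal protein scaling (edgeR adjusted p = 0.119). No other member spells this circle, whose unit is its own complement and holds 2 CpGs. How many copies in the genome, and which, gave these reads is not analysed here.

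(CACG)n had 682 and 692 reads in the mutants, against 558 and 611 in the siblings, which is 668 CPM in both mutants and 1445 and 1550 CPM in siblings. It fell by 1.16 ± 0.29 (edgeR, adjusted p = 0.00481) and stood at -3.09 relative to the median of all names. DESeq2 gave -0.73 and no call. The call was lost without mutant replicate 1 or mutant replicate 2 (adjusted p = 0.109 in both fits, log2 fold change -1.09 and -1.08), and the sign was positive with total gene reads or ribosomal protein scaling.

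(CCGTC)n had 56 and 32 reads in the mutants, against 223 and 187 in the siblings. It fell by 3.61 ± 0.40 (edgeR, adjusted p = 0.000233), and its log2 fold change was negative in all 6 scalings, between -5.32 and -0.93. With ribosomal protein scaling it was not called (edgeR, adjusted p = 0.0814). Its sequence is cCGtccCGtccCGtc in 3 copies, with CpGs in capitals. (CGAGCAG)n had 1 and 0 reads in the mutants, against 15 and 96 in the siblings. The siblings are far apart, yet both lie above both mutants. Its log2 fold change was -5.87 when sibling replicate 2 was left out and -8.58 when replicate 1 was, and the ratio of mutant to sibling was 0.00342 (95% counting interval 8.58e-05 to 0.0194, edgeR adjusted p = 0.000682). The sibling difference decides other names. (CCGCTCC)n had 35 and 34 reads in the mutants, against 14 and 110 in the siblings, and its log2 fold change of -2.23 (edgeR, adjusted p = 0.0188) was -0.05 without sibling replicate 2. (AGTCGG)n had 2 and 9 reads in the mutants, against 11 and 16 in the siblings, and fell by 2.65. (AATCGT)n had 0 and 4 reads in the mutants, against 10 and 14 in the siblings, and fell by 3.87. (GCTGCCGCT)n had 2 and 7 reads in the mutants, against 13 and 6 in the siblings, and fell by 2.43. Each call was lost without mutant replicate 1 or without mutant replicate 2. The last was also lost without sibling replicate 1 (log2 fold change -1.77, adjusted p = 0.243). The 5 other names called lower, which had 65 to 341 reads in all, fell by 1.57 to 1.77.

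**Figure D4:**
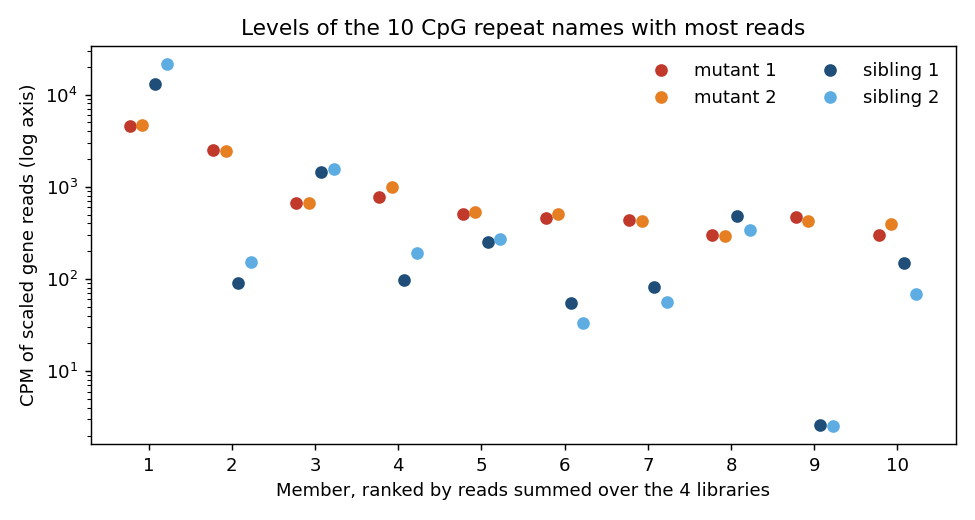
CPM (log axis) of the 10 members with most reads, ranked left to right in the order of the printed sequences, 1 point per library. Names 1, 3 and 8 lie higher in siblings, the other names lie higher in mutants, and name 9, (GCCCGC)n, has the widest gap.

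Among the names higher in mutants, (CGA)n had the most reads. It had 2557 and 2558 reads in the mutants, against 35 and 61 in the siblings, which is 2506 and 2469 CPM in mutants and 90.6 and 155 CPM in siblings. It rose by 4.34 ± 0.38 (edgeR, adjusted p = 5.83e-05), 2.42 above the median of all names, and it was called higher in all 6 scalings (highest adjusted p = 0.00663). Leaving out any library kept its log2 fold change between 4.0 and 4.84.

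(GCCCGC)n, a unit of C and G only with 2 CpGs, had 482 and 442 reads in mutants and 1 in each sibling. Its ratio of mutant to sibling was 175 (95% counting interval 48.4 to 1450, edgeR adjusted p = 2.28e-05), and this p was the lowest of any member. It stood 5.23 to 5.58 above the median of all names in the 6 scalings. The other name of this composition among the 10, (GCGGCC)n, lay on the other side of that median.

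(GTGC)n had 465 and 520 reads in the mutants, against 21 and 13 in the siblings, and rose by 3.45 ± 0.39 (edgeR, adjusted p = 0.000245). (GATGAC)n had 798 and 1039 reads in the mutants, against 38 and 76 in the siblings, and rose by 2.61 ± 0.39, or 3.24 without sibling replicate 2 and 2.21 without sibling replicate 1, where it lay at -0.14 relative to the median of all names. (TCG)n had 447 and 444 reads in the mutants, against 32 and 22 in the siblings, and rose by 2.64 ± 0.37. With all 4 libraries the 3 names stood above the median of all names in each scaling, but with TMM from the repeat counts (GATGAC)n and (TCG)n were not called (edgeR, adjusted p = 0.205 and 0.0529).

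(GACCGA)n and (CGTG)n were called higher but lie below the median of all names. The first had 305 and 406 reads in the mutants, against 58 and 27 in the siblings, a rise of 1.66 ± 0.42 that was 2.33 without sibling replicate 1 and lost its call without mutant replicate 2 (edgeR, adjusted p = 0.0522). The second had 522 and 557 reads in the mutants, against 97 and 106 in the siblings, a rise of 1.01 ± 0.30. Its call was lost without mutant replicate 1 (edgeR, adjusted p = 0.105) and without mutant replicate 2 (adjusted p = 0.12), where it was 1.12 and 1.06. (CATCGT)n had 309 and 300 reads in the mutants, against 188 and 133 in the siblings and did not pass, at -0.48 ± 0.32 (edgeR, adjusted p = 0.195). Its call turned with the scaling. It was lower with repeat TMM (-2.17, edgeR adjusted p = 0.00173), total repeat reads (-1.51, 0.00373) and gene and repeat reads together (-1.12, 0.00976). It was higher with total gene reads (1.19, 0.0233) and ribosomal protein reads (2.2, 4.04e-05). The circle that it shares with (GATGAC)n rose by 1.36 ± 0.32 (edgeR on summed names, adjusted p = 0.00107).

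In 40 tested members, and 67 of all 319, both siblings were at 0. With 3 counts as the limit that a count of 0 leaves, a sibling level of up to 7.77 CPM in replicate 1 and 7.61 CPM in replicate 2 would go unseen. Under gene TMM scaling the 40 tested names were at least 3.79-fold to 24.8-fold higher in mutants, against 3 counts over both siblings. All bounds in this paragraph hold for that scaling only. They take the mutant reads as counted, and cover neither the counting error of those reads nor spread between siblings beyond counting. They would be lower with total repeat reads or TMM from the repeat counts. The names with the largest fitted changes belong here: (TCCGCC)n had 85 and 111 reads in mutants, at least 24.8-fold higher, (TGACGA)n had 104 and 91, at least 24.7-fold, and (GCCACC)n had 83 and 92, at least 22.1-fold. (TGGCGAA)n, with 79 and 92 reads in mutants, was at least 21.6-fold higher, (GTAGTC)n at least 15.1-fold with 56 and 63 reads, and (CCGAG)n at least 13.7-fold with 43 and 65 reads. Names like these passed the limit of 20 reads through the mutants alone, so that they differ follows in part from how members were chosen.

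The shortest unit, C and G in turn, is written in 2 ways. (CG)n had 26 and 32 reads in mutants and 2 in each sibling, a log2 fold change of 2.42 ± 0.68 (edgeR, adjusted p = 0.00934). (GC)n, named after its values were seen, had 22 and 21 reads in mutants and 2 in each sibling, and a log2 fold change of 1.99 ± 0.66 (edgeR, adjusted p = 0.0192). Both names were among the members with few reads, and the call of (CG)n was lost without mutant replicate 1 (adjusted p = 0.262) and without mutant replicate 2 (adjusted p = 0.369).

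Units of 3 bases held 4882 and 4895 reads in the mutants, against 247 and 292 in the siblings. The 12 names are rotations or complements of (CGA)n or (CCG)n, 6 names each, so that they are not 12 separate repeats. All 12 were tested, and 11 were higher (91.7%) and 0 lower, beside 74.9% and 4.34% of all tested repeat names. The remaining one was (CGT)n, with 45 and 37 reads in the mutants, against 13 and 8 in the siblings and a log2 fold change of 0.56 ± 0.51 (edgeR, adjusted p = 0.324). The 6 names of C and G only were close to each other and to the median of all names, with log2 fold changes between 1.03 and 2.19. The calls of the lowest of them, (GGC)n at 1.03 and (CGC)n at 1.18, were lost without mutant replicate 1 (edgeR, adjusted p = 0.224 and 0.292) and without mutant replicate 2 (adjusted p = 0.252 and 0.244). Among them (CCG)n had 265.5 and 262.5 CPM in the mutants, against 54.4 and 83.7 CPM in the siblings. Its complement (CGG)n had 252.8 and 216.2 CPM in the mutants, against 41.4 and 60.9 CPM in the siblings. They rose by 1.93 ± 0.38 and 2.19 ± 0.39 (edgeR, adjusted p = 0.00164 and 0.00108). The 6 names that also hold A or T spanned 0.56 to 4.34.

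Units of 4 to 7 bases gave calls in both directions. Over all tested repeat names 74.9% were higher and 4.34% lower, and differences between unit lengths were not tested. Units of 4 bases had 20 of 35 tested names higher (57.1%) and 1 lower, with log2 fold changes between -1.16 and 7.33. Units of 5 bases had 21 of 26 higher (80.8%) and 1 lower. Units of 6 bases, the largest class, had 99 of 151 higher (65.6%) and 7 lower, with a median of 1.98 and a span of -3.87 to 9.08. Units of 7 bases had 12 of 23 higher (52.2%) and 3 lower, with a median of 1.28. Units of 8, 9 and 10 bases had 4, 5 and 1 tested names. The names with most reads at the lengths not yet described were (ACGAA)n with 255 and 299 reads in the mutants, against 1 and 12 in the siblings, and (GCGATCT)n with 332 and 267 in the mutants, against 27 and 67 in the siblings. (ACGAA)n rose by 4.0 ± 0.64, but by 6.67 without sibling replicate 2 and 3.14 without sibling replicate 1 (edgeR, adjusted p = 0.000749 with all libraries). (GCGATCT)n rose by 1.28 ± 0.44, or 2.11 without sibling replicate 2, and lost its call without mutant replicate 1 (edgeR, adjusted p = 0.165) or mutant replicate 2 (adjusted p = 0.0537). At 9, 8 and 10 bases, (TCGATCACC)n, (CACACACG)n, and (AAATCTGCGG)n had log2 fold changes of 1.32, 1.75 and 1.71, and the call of each was lost without mutant replicate 1 (edgeR, adjusted p = 0.0756, 0.356 and 0.419). Without sibling replicate 1 (CACACACG)n was at 2.34 and (AAATCTGCGG)n at 3.0, and without sibling replicate 2 they were at 1.39 and 1.09 and not called (edgeR, adjusted p = 0.0928 and 0.202).

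Members were also set side by side by the count of CpGs and the base composition of the unit, and the differences were not tested. The shares over all tested repeat names were 74.9% higher and 4.34% lower. Units with 1 CpG had 168 of 250 tested names higher (67.2%) and a median log2 fold change of 2.01. Units with 2 CpGs had 4 of 9 tested names higher and a median of 1.52, over a span of -1.89 to 7.36. By the share of C and G in the unit, the median was 1.82 up to 40%, 2.03 from there to 60%, 2.02 to 80%, 2.44 above 80% and 1.59 in units of C and G only. Names whose CpG arises only where the end of the unit meets the next copy had 39 of 57 tested names higher (68.4%) and 0 lower. Names with a CpG inside the unit as written had 133 of 202 higher (65.8%) and 13 lower.

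Several names can spell the same tandem repeat, because the unit can start at any base and be read on either strand. The 319 members made up 131 such circles, of which 66 had 1 name and 65 had 2 to 10. Units of unlike length were kept apart. (GTCGTC)n, with 25 reads, therefore counts as a circle of its own, although it spells the same tandem repeat as (GTC)n. Names of the same circle did not share a value. Over the 50 circles with 2 or more tested names, the median SD of the log2 fold change within a circle was 1.68. The SD over all tested members was 2.71. The former is a median of SDs, many from only 2 names, so these values cannot be set against each other. Both include names without sibling reads, whose fitted size depends on the prior count. Whether names of a circle lie closer together than members at large was not tested. In 3 circles a name was called higher and another lower. Each name pools its own copies in the genome, and how reads that map to several copies were counted is not given in the sources used here.

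**Figure D5:**
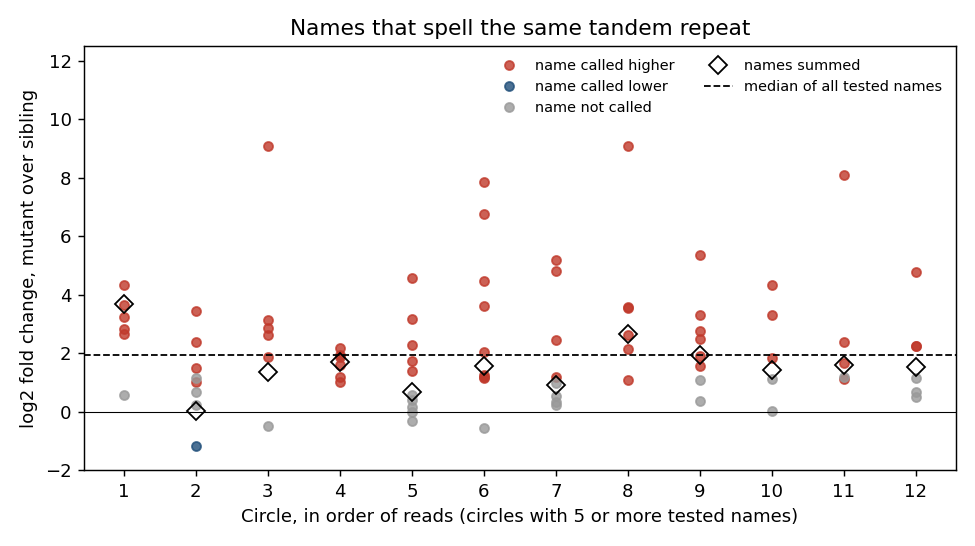
Log2 fold change of mutant over sibling of each tested name (points) and of the summed names (diamonds) in the 12 circles of most reads that have 5 or more tested names. Circle 1, that of (CGA)n, lies above the median of all tested names in all but 1 name, circle 2, that of (CACG)n, spans both sides of 0, and circle 4, that of (CCG)n, is the tightest.

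The circle of (CGA)n had 6 names, all with units of 3 bases, and (CGA)n held 72.8% of its reads. (GTC)n had 176 and 200 reads in the mutants, against 11 and 4 in the siblings and rose by 3.24 ± 0.50, or 4.15 without sibling replicate 1 (edgeR, adjusted p = 0.000694). (ACG)n had 158 and 162 reads in the mutants, against 6 and 11 in the siblings and rose by 2.83 ± 0.46 (edgeR, adjusted p = 0.000791). (GAC)n had 83 and 84 reads in the mutants, against 0 and 5 in the siblings and rose by 3.63 ± 0.75, with 2.66 without sibling replicate 1 and 9.06 without sibling replicate 2. Summed, the 6 names had 3466 and 3485 reads in the mutants, against 97 and 111 in the siblings, and rose by 3.66 ± 0.35 (edgeR on summed names, adjusted p = 2.74e-07).

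The circle of (CACG)n had 8 names, 4 of them higher, 1 lower and 3 not passing. Summed, they had 2108 and 2259 reads in the mutants, against 767 and 855 in the siblings, with a log2 fold change of 0.03 ± 0.31 (edgeR on summed names, adjusted p = 0.929). The written orientation, with (CACG)n, had 864 and 888 reads in the mutants, against 572 and 643 in the siblings, and the complementary one, with (CGTG)n, 1244 and 1371 in the mutants, against 195 and 212 in the siblings. By contrast, the circle of (CCG)n gave 682 and 673 reads in mutants and 74 in each sibling in one orientation, and 734 and 737 in the mutants, against 76 and 107 in the siblings in the other. Its 6 names were all higher, and summed they rose by 1.70 ± 0.34 (edgeR on summed names, adjusted p = 0.000229).

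Among 24 pairs of members that are exact complements of each other with 100 or more reads each, the log2 fold changes of a pair differed by 0.03 to 6.20. The closest were (AGCCGC)n and (GCGGCT)n, at 1.17 and 1.15. The widest gap was that of (TGACGA)n, at 0 in both siblings, and (TCGTCA)n, where the size depends on the prior count. With sibling reads in both names, (TTCG)n and (CGAA)n stood 4.32 apart: the first had 168 and 210 reads in the mutants, against 6 and 1 in the siblings, and the second 111 and 123 in the mutants, against 61 and 27 in the siblings. After summing all names of a circle, also those under 20 reads, 118 of the members' circles were tested. Of these 79 were higher (66.9%) and 9 lower (7.63%) in mutants, beside 79.0% and 3.35% of all 1883 names and circles tested in that fit (edgeR, Benjamini-Hochberg).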

How the data were processed

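Ribosomal-RNA-depleted RNA of 4 libraries, 2 mutant and 2 sibling, was analysed. The values are whole-number read counts per gene and per repeat name, deposited by the authors without normalization, per the file headers. TopHat2, HTSeq, DESeq2 and GRCz10 are named in the submitters' processing notes. Their settings, the repeat annotation, the use of strand and the treatment of reads with several positions are, like the positions and copy numbers of the repeats, not given in the sources used here. Levels are therefore reads per name and are not comparable between names per length. The sibling columns are headed ABNYU in the deposited tables and were matched to the samples by their descriptions. The mutant columns have another heading, so that the heading parts the libraries in the same way as the group.

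Gene TMM factors, computed after edgeR's expression filter, scaled the repeat counts. Repeat names were filtered on expression, and the groups were compared with edgeR's quasi-likelihood test over all names with Benjamini-Hochberg adjustment at 0.05. The error of a log2 fold change is its size divided by the square root of the quasi-likelihood F. It stands in for an SE, with 2 libraries a group. The procedure was tested on simulated data. There every name had the same spread and only a small part of the names was changed, unlike here. The simulation therefore does not give the error rates of these calls. Libraries held 564941 to 812167 gene reads, which limits the scaling, and 1611818 to 10559130 repeat reads. The gene TMM factors were 1.78 and 1.83 in mutants, against 0.63 and 0.49 in siblings. Genes with a read numbered 21018 and 21135 in mutants, against 14160 and 14397 in siblings. TMM takes most genes to be unchanged between libraries. With the makeup of these libraries that was not tested, and it limits every CPM and fold under this scaling.

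Members and lists were chosen with earlier results of these data known. Named were the 10 members with most reads, up to 6 called members with the largest change each way at a mean of 5 CPM or more and no overlap of the groups, the 3 names on each side of the limit of 20 reads, the most-read member of each unit length, and names of 100 or more reads whose circle also holds a complement of that depth. The last rule took most of 98 names. Of these, the circles of (CGA)n, (CACG)n and (CCG)n are described, with some single names and pairs. The rest enter only the counts. A circle groups units that are rotations or complements of each other. Fits on summed names took all names of a circle, also those under 20 reads. Alternatives were other scalings (repeat TMM, total repeat reads, total gene reads, gene and repeat reads together, ribosomal protein gene reads), DESeq2, no filter, member limits of 10 and 50 reads, CpG only within the unit as written, a replicate block, and leaving out each library. Whether same-numbered replicates belong together is not given in the labels. The correlation of same-numbered deviations was -0.0203, which cannot decide this, because the 2 sibling libraries differ in makeup. Differences between replicates exceeded counting noise, with a chi-square per degree of freedom over members of 2.08 in mutants and 4.35 in siblings. R 4.3.3, edgeR 4.0.16, limma 3.58.1, DESeq2 1.42.0, Python 3.11.15 and scipy 1.17.1 were used.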

Additional observations from a re-analysis of the deposited data

Results flagged for a closer look

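The 699 simple repeat names with a CpG unit that fell under 20 reads were outside the comparisons of members. Their summed CPM was higher in mutants under gene TMM scaling. Their reads summed to 918 and 952 in mutants, against 93 and 98 in siblings. In CPM these sums were 899.5 and 918.9 in mutants and 240.8 and 248.6 in siblings, a mean 3.72-fold higher in mutants. All repeat names together were 2.06-fold higher in the same scaling. The fold moves with the scaling, and no other scaling was applied to this sum. Other repeat names with few reads were not summed beside it. Names with few reads in all are listed here because of their low counts, and no single one was tested.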

How the results depend on the processing

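Of 185 members called (median log2 fold change 1.99) and 2667 repeat names called, TMM from the repeat counts left 56 (median 0.19) and 916, total repeat reads 97 (0.87) and 1612, and ribosomal protein gene reads gave 299 (4.89) and 4002. Total gene reads moved the median to 3.89, gene and repeat reads together to 1.28, DESeq2 to 2.59, and no count filter to 2.15 with 123 members called. Summing the names of 1 circle, added after seeing the data, gave 88 and 1551 calls and a median of 1.81. Leaving out 1 library gave 55 to 219 members (24.5% to 69.3% of those tested, beside 45.2% to 74.4% of all names) and 1363 to 3087 names called, with medians of 1.93 to 2.43. The replicate block gave 132 members called (123 higher, 9 lower; 51.0% of those tested beside 62.8% of all names) and a median of 2.08. The difference in share, mutant minus sibling in percentage points, turned to 0.0274 from -0.306 for all repeat reads and to 0.757 from -1.51 for simple repeat reads without the member with most reads, and ran from -0.49 to -0.121 and from -2.03 to -0.987 without 1 library. The log2 ratio of the summed members, also added later, was 0.044. It turned to -1.06 with total repeat reads and -0.635 with gene and repeat reads together. With total gene reads it was 1.78, and with ribosomal protein reads 2.8. Without 1 library it ran from -0.195 to 0.331. TMM from the repeat counts was not applied to it. With ribosomal protein reads (GCGGCC)n turned to 0.88, (CACG)n to 1.56, (CATCGT)n to 2.21 and (CCGCTCC)n to 0.62, and with total gene reads (CACG)n to 0.54 and (CATCGT)n to 1.19. With repeat TMM, (CGTG)n turned to -0.73, (GACCGA)n to -0.014, (GCG)n to -0.19, (GCGATCT)n to -0.52, (TCGATCACC)n to -0.41, (GGC)n to -0.70, (CGC)n to -0.52 and (CGT)n to -1.12. With total repeat reads, (CGTG)n turned to -0.061, (GGC)n to -0.037 and (CGT)n to -0.46, and with gene and repeat reads together (CGT)n to -0.078. Scalings differ in what they hold equal between libraries, and which of them suits these samples was not tested. Loss of calls was counted over 38 of the 98 named members. Of these, (CATCGT)n and (CGT)n had no call to lose. Among named members the call was lost in 13 of 38 tested without mutant replicate 1, 12 of 36 without mutant replicate 2, 1 of 38 without sibling replicate 1, 3 of 37 without sibling replicate 2, 9 of 38 with no filter, 5 of 38 with DESeq2 and 7 of 38 with the replicate block, among them (GGC)n (adjusted p = 0.118), (CGC)n (0.131), (CGTG)n (0.0511) and (CG)n (0.104). Depth limits the 188 members under 100 reads most.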
